A study of Mus musculus with 6 samples.

Results

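Glycosylphosphatidylinositol (GPI) anchors are glycolipids that hold proteins on the outer face of the plasma membrane. The values below are those of 10 mouse genes that build, attach or remodel the anchor, out of 52249 genes in the deposited table. They are Piga and Pigp of the first synthetic step, the transamidase subunit genes Pigk, Pigt, Pigs, Pigu and Gpaa1, and the remodelling genes Pgap1, Pgap2 and Pgap3. The members were picked by gene symbol with the fold changes of this comparison already known, so their differences between the groups are given as a description. SEs and 95% intervals show the error of a value under a spread shared by both groups. They make no allowance for how the members were picked. Counts of members past a threshold are given beside those of all genes and support nothing. Each symbol matched 1 row, and all 10 passed the filter on low counts. Pgap3 had no more than 10 counts in any control library and passed through the other group.

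Messenger RNA was sequenced from its 3′ end in intestinal organoids of mice, which are cultures of epithelium. All carried the genotype Apc-knockout, that is, loss of a tumour suppressor which holds back WNT signalling. The genotype label of 3 libraries was Apc-knockout alone (control), and that of 3 was Apc-knockout with IGF2BP3 overexpression (called OE-labelled here). IGF2BP3 is an RNA-binding protein, and the study asked how it acts on adenoma cell growth and on MYC. How Apc was removed, what drives IGF2BP3, the donors' strain and age, and whether the replicates are separate cultures are not given in the sources used here. The p-values therefore measure the spread between these libraries, which may be technical.

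Total counts ran from 2180116 to 2228078 in control and from 2310236 to 2519917 in OE-labelled libraries. Igf2bp3 had 1, 0 and 0 counts in each group, under the floor of 3 counts, so the overexpression label had no check in these counts. Each group has its own series of library names, so a library batch and the group cannot be told apart in any comparison. Of the 12 intestinal epithelial markers 8 were tested, and their summed level with the rest of the list was 3460 to 3710 CPM (counts scaled by the TMM-adjusted library size) in control and 4600 to 5200 CPM in OE-labelled libraries. Of these, 3 rose, namely Vil1, Krt8 and Krt18 (edgeR adjusted p of at most 0.0022). This is 37.5%, while 16.5% of all genes tested rose and 29.2% passed in either direction. Most of the rise in the sum came from Krt18 (1179 to 2229 CPM) and Krt8 (497.7 to 829.2 CPM). The general epithelial markers Epcam (432 to 455 CPM) and Cdh1 (1398 to 1282 CPM) did not pass, nor did Lgr5, Olfm4 and Muc2. Krt20, Lyz1, Chga and Fabp1, markers of mature cell types, had 0 counts in every library. Immune, endothelial and mesenchymal markers summed to at most 1.88 CPM per list in any library. In such bulk samples fewer cells of a type and less RNA per cell cannot be told apart.

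The anchor is assembled on phosphatidylinositol in the endoplasmic reticulum. The step that starts it transfers N-acetylglucosamine to the lipid, mannoses and phosphoethanolamine are then added, and the transamidase cuts the carboxy-terminal signal of a protein and joins the protein to the finished glycolipid. Pgap1 then removes an acyl chain from the inositol ring, and in the Golgi Pgap3 and Pgap2 exchange a fatty acid so that the protein can enter ordered membrane domains. In the intestinal epithelium the anchor carries apical enzymes, complement regulators and small Ly6-family surface proteins.

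Of the 10 genes, 3 passed an edgeR adjusted p of 0.05 in the fit over all genes, Pgap3 and Gpaa1 higher and Pigt lower in OE-labelled libraries. In the same fit 29.2% of the 10687 genes tested passed, 16.5% higher and 12.7% lower. Those 3118 genes became 1748 to 1893 when any 1 control library was left out. The groups' CPM values were fully separated for 5 members (Pgap3, Gpaa1, Pigt, Pigu and Pgap2), against 45.7% of all genes tested. The median log2 fold change of the members was -0.04, with 4 positive and 6 negative values, and that of all genes tested was 0.04. Because this contrast was known when the members were chosen, nothing is read from these counts.

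**Figure D1:**
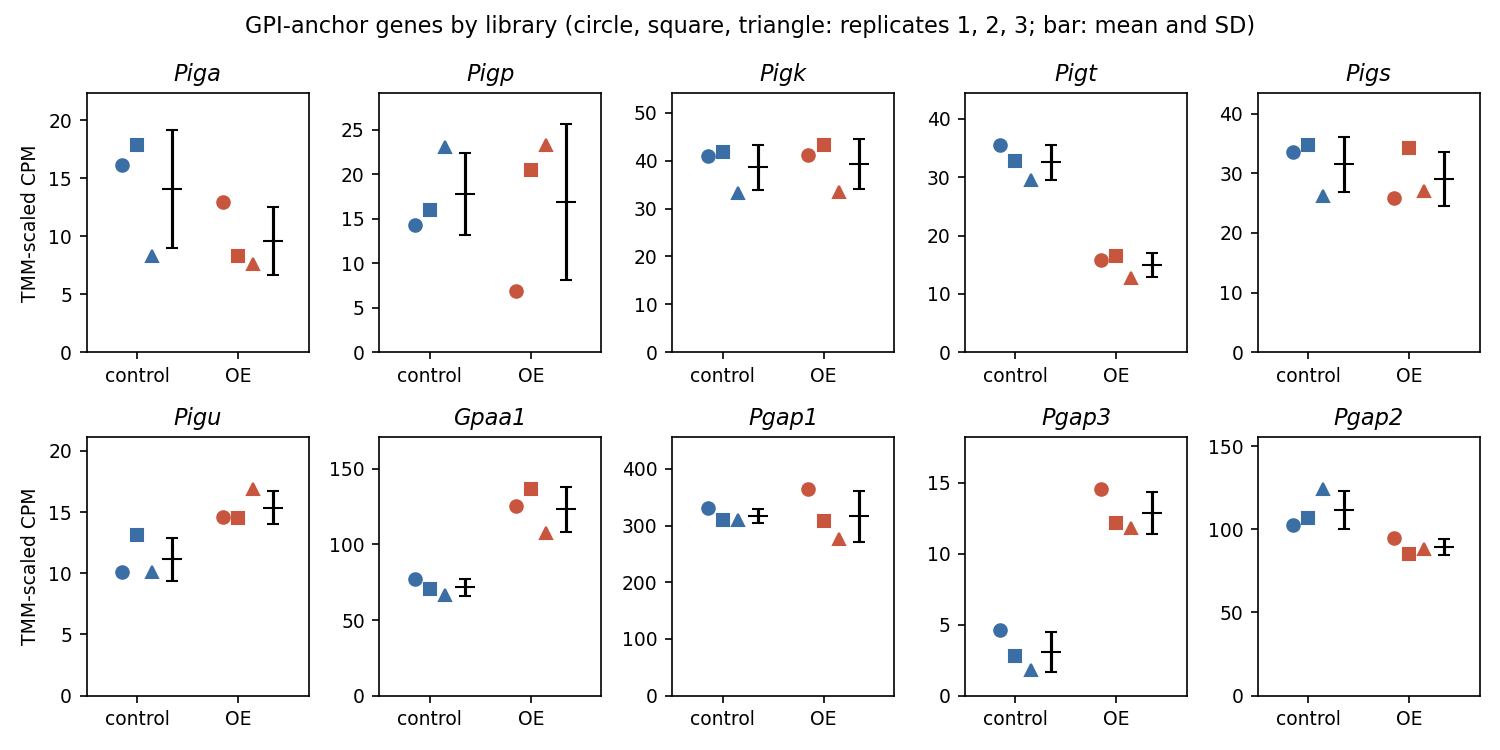
TMM-scaled CPM of the 10 GPI-anchor genes in each library, with control libraries in blue, OE-labelled libraries in red, a symbol per replicate, and a black bar for the mean and SD (n = 3). Pgap3 and Gpaa1 lie higher and Pigt lower in all 3 OE-labelled libraries, while Pgap1, Pigk, Pigs, Piga and Pigp overlap between the groups.

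The first step of the pathway is carried out by a membrane enzyme whose catalytic subunit is encoded by Piga, an X-linked gene (chromosome X, 164419787 to 164433916, plus strand, GRCm38). Piga was counted at 16.1, 17.8 and 8.29 CPM in control replicates 1, 2 and 3 and at 13.0, 8.26 and 7.61 CPM in OE-labelled replicates 1, 2 and 3. The groups overlapped, because control replicate 3 lay among the OE-labelled libraries. The log2 fold change was -0.55 (SE 0.315, n = 3 per group), with a 95% interval from -1.23 to 0.14 and 18 to 38 counts per library behind it. Without OE-labelled replicate 1 the log2 fold change was -0.87.

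Pigp encodes a small accessory subunit of the same enzyme (chromosome 16, 94358763 to 94371842, minus strand). It was counted at 14.29, 15.95 and 23.04 CPM in control and at 6.89, 20.5 and 23.3 CPM in OE-labelled libraries. OE-labelled replicate 1 was the lowest of the 6, at 17 counts, and the other OE-labelled libraries lay within or next to the control range. The log2 fold change was -0.08 (SE 0.352, n = 3), and without OE-labelled replicate 1 it was 0.24. Pigp shares exonic sequence with Ttc3 on the opposite strand (326 bases) and with the pseudogene Gm15310 on its own strand (234 bases), and some of its counts were fractional, so its level is uncertain.

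Of the transamidase subunit genes, Gpaa1 was higher and Pigt lower in OE-labelled libraries. Gpaa1 encodes a membrane subunit of the complex that takes part in joining the anchor to the protein (chromosome 15, 76331231 to 76334907, plus strand). It was counted at 77.4, 70.8 and 66.3 CPM in control and at 125.6, 136.8 and 107.4 CPM in OE-labelled libraries. Every OE-labelled library lay above every control library. The means were 71.5 ± 5.57 and 123.3 ± 14.9 CPM (SD, n = 3), and the log2 fold change was 0.79 (SE 0.129).

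Pigt encodes a lumenal subunit that stabilises the complex (chromosome 2, 164497520 to 164508301, plus strand). It was counted at 35.5, 32.8 and 29.5 CPM in control and at 15.8, 16.5 and 12.7 CPM in OE-labelled libraries. Its counts were 77, 70 and 64 in control and 39, 42 and 30 in OE-labelled libraries. The groups were far apart, with the highest OE-labelled value below the lowest control value. The log2 fold change was -1.12 (SE 0.187, n = 3), with a 95% interval from -1.52 to -0.71, and single libraries left out in turn gave -1.22 to -1.01.

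Pigu, which encodes a multi-pass membrane subunit (chromosome 2, 155278243 to 155357430, minus strand), had 10.1, 13.1 and 10.1 CPM in control and 14.6, 14.6 and 16.9 CPM in OE-labelled libraries. The groups did not overlap, although the nearest libraries, control replicate 2 and OE-labelled replicate 2, differed by less than the SD of the control group (1.73 CPM). The log2 fold change was 0.46 (SE 0.225, n = 3). It rested on 22 to 40 counts per library.

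Pigk encodes the protease-like catalytic subunit (chromosome 3, 152714100 to 152980408, plus strand). Its values were 41.0, 41.8 and 33.2 CPM in control and 41.3, 43.3 and 33.4 CPM in OE-labelled libraries, so the groups covered the same range. The log2 fold change of 0.03 had a 95% interval from -0.32 to 0.38. Pigk spans 6 other annotated genes, of which St6galnac5 on the opposite strand shares 108 exonic bases with it.

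Pigs, a lumenal subunit gene (chromosome 11, 78328415 to 78342782, plus strand), was counted at 33.6, 34.7 and 26.3 CPM in control and at 25.9, 34.2 and 27.1 CPM in OE-labelled libraries. These ranges overlapped as well, and the log2 fold change was -0.12 with a 95% interval from -0.51 to 0.28. An interval of this width does not show that Pigs or Pigk was equal in the groups.

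Ratios within a library do not depend on how libraries are scaled. The counts of Gpaa1 divided by those of Pigt gave 2.18, 2.16 and 2.25 in control and 7.95, 8.29 and 8.47 in OE-labelled libraries. The means were 2.2 ± 0.048 and 8.23 ± 0.26 (SD, n = 3), and the ranges did not overlap. Pigt had 64 to 77 counts per library in control and 30 to 42 in OE-labelled libraries. Counting error was not computed for the ratios, so these SDs may understate how uncertain the ratios are. The ratio of Pigk to Pigs was 1.22, 1.2 and 1.26 in control and 1.59, 1.26 and 1.23 in OE-labelled libraries, with ranges that overlapped. These pairs were chosen after the values were seen, so the separation of Gpaa1 from Pigt is a description only.

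Expressed as shares of the summed counts of the 5 transamidase genes, Gpaa1 took 36.7 to 40.1% in control and 54.4 to 56.3% in OE-labelled libraries. Pigt took 17 to 17.9% and 6.42 to 7.08%, and its 95% exact binomial (Clopper-Pearson) intervals reached down to 13.5% in control and up to 9.55% in OE-labelled libraries. The share of Pigu ran from 5.13 to 6.8% in control and from 5.93 to 8.57% in OE-labelled libraries, which overlapped. The intervals cover counting error only, since no molecular identifiers are stated and several reads can stem from 1 molecule. Shares sum to a fixed total, so the lower shares of Pigk and Pigs in OE-labelled libraries move with the higher share of Gpaa1.

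**Figure D2:**
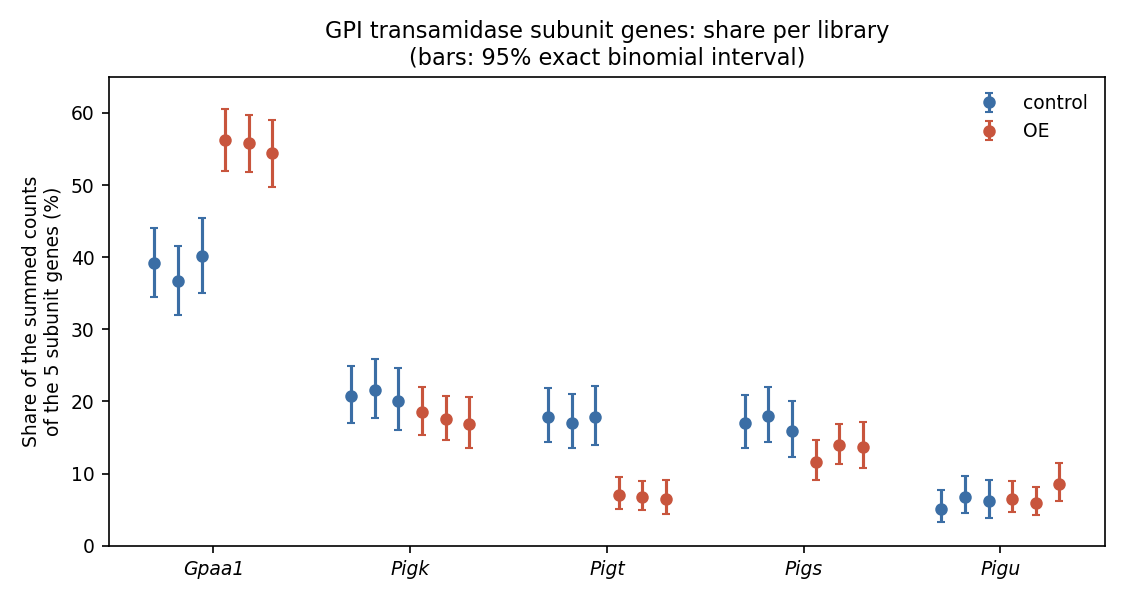
Share of each gene in the summed counts of the 5 transamidase subunit genes, per library, with control in blue and OE-labelled in red, replicates from left to right and bars for the 95% exact binomial interval. Gpaa1 takes 54.4 to 56.3% in OE-labelled libraries against 36.7 to 40.1% in control, and Pigt 6.42 to 7.08% against 17 to 17.9%.

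Among the remodelling genes, Pgap3 had the largest fold change of the 10 members. It encodes the Golgi protein needed to remove an unsaturated fatty acid from the anchor (ENSMUSG00000038208, chromosome 11, 98388677 to 98400490, minus strand). Its counts were 10, 6 and 4 in the control group and 36, 31 and 28 in the OE-labelled group. These are 4.61, 2.82 and 1.84 CPM against 14.6, 12.2 and 11.8 CPM, and the lowest OE-labelled library was above the highest control library. The means were 3.09 ± 1.4 and 12.9 ± 1.49 CPM (SD, n = 3), and the log2 fold change was 2.04 (SE 0.332, 95% interval 1.32 to 2.76). With any 1 library left out, the log2 fold change lay between 1.78 and 2.44.

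RefSeq promoter windows (GRCm38.p6, 250 bases before to 50 after a start) were found for 8 of the 10 members. Those of Pgap3 and Pigt are shown because these are the members with the largest difference in each direction. Capitals mark matches on either strand to CACGTG (an E-box, the core site of MYC and MAX), GGGCGG (a GC box) or CCAAT.
Pgap3 promoter, chr11:98400441-98400740, minus strand: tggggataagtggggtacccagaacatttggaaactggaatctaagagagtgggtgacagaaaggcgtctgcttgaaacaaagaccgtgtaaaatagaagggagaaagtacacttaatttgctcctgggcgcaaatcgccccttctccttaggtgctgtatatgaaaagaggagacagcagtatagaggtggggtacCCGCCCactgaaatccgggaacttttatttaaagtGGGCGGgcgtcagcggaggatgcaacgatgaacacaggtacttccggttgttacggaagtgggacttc
Pigt promoter, chr2:164497275-164497574, plus strand: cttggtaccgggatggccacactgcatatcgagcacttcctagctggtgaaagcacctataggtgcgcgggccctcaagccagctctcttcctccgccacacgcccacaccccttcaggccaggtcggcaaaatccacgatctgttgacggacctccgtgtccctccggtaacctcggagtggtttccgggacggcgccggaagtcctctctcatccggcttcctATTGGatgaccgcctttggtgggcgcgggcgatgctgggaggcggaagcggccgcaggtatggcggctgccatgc
The Pgap3 window held 2 GC boxes and the Pigt window 1 CCAAT match in the reverse orientation. Of all 32851 windows of 300 bases in the table, 7.15% held CACGTG, 35.7% GGGCGG and 37.4% CCAAT. Of the 16 windows of the members, the 2 with CACGTG were windows of Pigp. A match is a description of the letters and not evidence of a bound factor.

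Pgap2 encodes the Golgi protein required for the second part of the exchange, the attachment of a saturated fatty acid (chromosome 7, 102210208 to 102238567, plus strand). It was counted at 102.8, 107.0 and 124.4 CPM in control and at 94.8, 84.9 and 88.4 CPM in OE-labelled libraries. The OE-labelled values were all below the control values, by a small margin. The log2 fold change was -0.32 (SE 0.12, n = 3). Without OE-labelled replicate 1 it was -0.42, and with the offset for GC content described below it was -0.52. Pgap2 did not pass in the main fit but passed in 6 of 17 alternatives, so its call depended on the fit. Pgap2 shares 606 exonic bases with AC139579.1 on its own strand and had fractional counts in control replicates 2 and 3, so its level is uncertain. The ratio of Pgap3 to Pgap2 counts was 0.0448, 0.0264 and 0.0148 in control and 0.154, 0.144 and 0.134 in OE-labelled libraries, without overlap. That of Pgap1 to Pgap2 was 3.22, 2.9 and 2.49 in control and 3.85, 3.62 and 3.13 in OE-labelled libraries, which overlapped. These pairs were also chosen after the values were seen, so the separation of Pgap3 from Pgap2 is a description only.

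Pgap1 encodes the inositol deacylase of the endoplasmic reticulum (chromosome 1, 54472994 to 54557684, minus strand). Its values were 330.4, 309.2 and 310.1 CPM in control and 365.0, 307.5 and 276.9 CPM in OE-labelled libraries. OE-labelled replicate 1 was the highest and OE-labelled replicate 3 the lowest of the 6. The means were 316.6 ± 12 and 316.5 ± 44.7 CPM (SD, n = 3), and the 95% interval of the log2 fold change ran from -0.25 to 0.25. The spread on the log2 scale was wider in OE-labelled than in control libraries for 5 of the 10 members and for 67.4% of all genes tested.

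The genes around Pgap3 on chromosome 11 were examined in turn, since closely packed genes can share reads. Pgap3 overlaps no annotated gene in GENCODE M21. Of its listed neighbours, Ppp1r1b, which encodes a phosphatase inhibitor, rose from 98.0 ± 1.7 to 160.6 ± 15.3 CPM (SD, n = 3; log2 fold change 0.71, SE 0.114, edgeR adjusted p = 0.000838). Ppp1r1b overlaps 1 gene on the opposite strand. The sterol transporter gene Stard3, the receptor gene Erbb2, Mien1 and the adaptor gene Grb7 did not pass the test, with log2 fold changes of -0.06, 0.21, 0.15 and 0.02 and edgeR adjusted p-values from 0.347 to 0.886. The sign of those of Mien1, Erbb2, Grb7 and Stard3 depended on the fit. Tcap, Pnmt and Ikzf3 were not tested for lack of counts. Erbb2, which lies next upstream of Pgap3 in the annotation, had 56.2, 37.1 and 41.9 CPM in control and 51.5, 59.0 and 46.1 CPM in OE-labelled libraries, which overlap.

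Fold changes followed the base composition of the transcripts across the whole table, and the members differ widely in it. GC content was taken over whole annotated transcripts, while the reads lie near the 3′ end, so it may differ from that of the sequenced fragments. Spearman's rho between GC content and log2 fold change was 0.38 across 10679 genes, which are not independent replicates. In the quintile of genes with the highest GC content (55.7 to 73.7%), 28.8% were higher and 4.82% lower, and in the quintile with the lowest (27.5 to 44.7%) 4.4% were higher and 24.2% lower. Gpaa1 (59.3% GC), Pgap3 (58.3%), Pigt (57.4%) and Pigs (56.3%) are in the highest quintile, and Pgap1 (40.0%) and Piga (43.3%) in the lowest. With an offset for GC content in each library, the log2 fold changes were 1.79 for Pgap3, 0.53 for Gpaa1 and -1.36 for Pigt. Those of Pgap1 and Piga were 0.29 and -0.31.

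**Figure D3:**
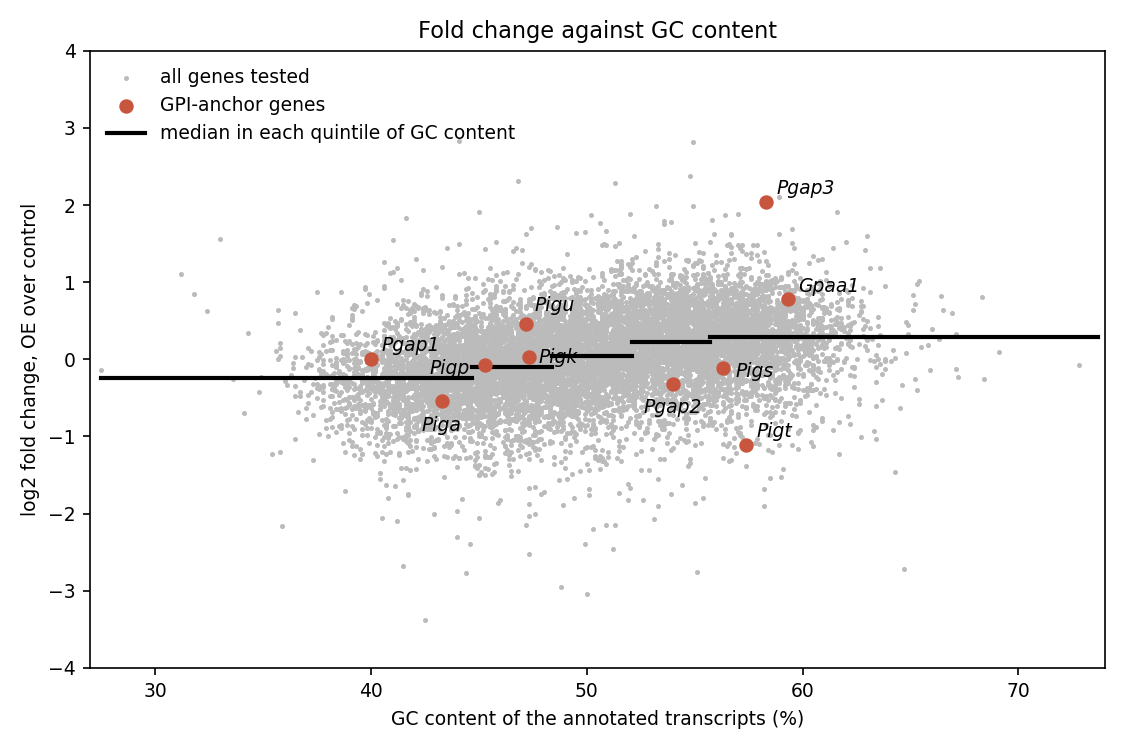
Log2 fold change (OE-labelled over control) against the GC content of the annotated transcripts in percent, with all genes tested in grey, the 10 GPI-anchor genes in red and black lines for the median of each quintile of GC content. The medians run from -0.24 in the lowest quintile to 0.29 in the highest, while Pgap3 and Pigt, with 58.3% and 57.4% GC, lie far above and below them.

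Of the other genes of the pathway, 28 were tested, of which 5 rose and 1 fell (edgeR, adjusted p below 0.05), and 22 did not pass. This is 21.4% of the list, against 29.2% of all genes tested (16.5% higher and 12.7% lower). This list too was chosen with earlier results of these data known. Without OE-labelled replicate 3, 10 passed, while the count over all genes went from 3118 to 3532. With DESeq2 3 rose, while the count of all genes that rose went from 1765 to 1059. The median log2 fold change of these pathway genes was 0.20, against 0.04 for all genes tested, with 19 positive and 9 negative values. The median was 0.11 without OE-labelled replicate 1, 0.12 without OE-labelled replicate 2 and 0.305 without control replicate 2. Pigz, a mannosyltransferase gene, had 0 counts in every library and was not tested.

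Pigx, which encodes the partner subunit of the enzyme that adds the first mannose, was counted at 36.9, 31.4 and 33.6 CPM in control and at 87.1, 77.1 and 67.6 CPM in OE-labelled libraries. It rose in every OE-labelled library over every control library (log2 fold change 1.18, SE 0.145, n = 3, edgeR adjusted p = 2e-04). Mppe1, which encodes the phosphoesterase that trims the anchor before it leaves the endoplasmic reticulum (also known as PGAP5), rose from 9.27 ± 0.469 to 19.2 ± 4.11 CPM (SD, n = 3; log2 fold change 1.04, SE 0.24, edgeR adjusted p = 0.0068). Mppe1 overlaps 1 gene on the opposite strand.

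Dpm2, which encodes a regulatory subunit of the dolichol-phosphate-mannose synthase and takes part in the first step with Piga, rose from 30.8 ± 4.7 to 53.7 ± 1.62 CPM (SD, n = 3; log2 fold change 0.80, SE 0.153, edgeR adjusted p = 0.00233). Dpm1 and Dpm3, the other subunit genes of that synthase, had log2 fold changes of 0.01 (SE 0.173) and -0.11 (SE 0.132) and did not pass. Clptm1l, which encodes a lipid scramblase of early intermediates, rose by 0.41 (SE 0.118, n = 3, edgeR adjusted p = 0.0197). The call for Clptm1l was lost with DESeq2 (adjusted p = 0.0856) and without any 1 control library or OE-labelled replicate 2 (edgeR adjusted p 0.0658 to 0.11).

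Tmed5, which encodes a p24 cargo receptor for anchored proteins leaving the endoplasmic reticulum, fell from 33.4 ± 2.34 to 17.2 ± 0.989 CPM (SD, n = 3; log2 fold change -0.95, SE 0.171, edgeR adjusted p = 0.00165). Tmed5 overlaps 1 gene on the opposite strand. The other p24 genes listed, Tmed2, Tmed9 and Tmed10, had log2 fold changes of -0.36 (SE 0.129), 0.06 (SE 0.105) and 0.09 (SE 0.114) and did not pass. Gpld1, the gene of a phospholipase that cleaves the anchor, lay at the threshold (log2 fold change 0.77, SE 0.272, n = 3, edgeR adjusted p = 0.04999) and was past it in 2 of 17 alternatives. Gpld1 shares 2466 of its 5415 exonic bases with 1 gene on the opposite strand, and it was named after its value was seen.

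**Figure D4:**
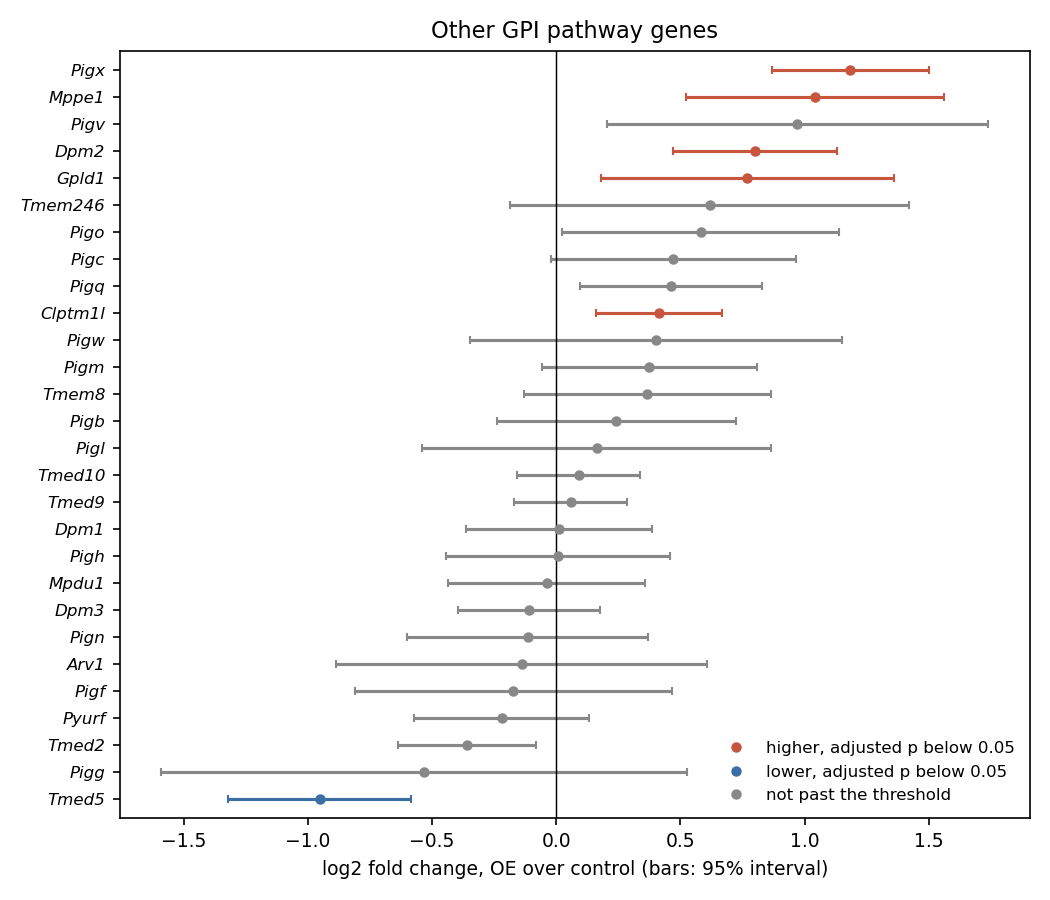
Log2 fold change (OE-labelled over control) of the 28 tested GPI pathway genes outside the 10 members, with bars for the 95% interval and colour for the edgeR adjusted p (red higher, blue lower, grey not past the threshold). Red genes are Pigx, Mppe1, Dpm2, Gpld1 and Clptm1l, and Tmed5 is the only blue gene.

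The proteins that carry the anchor were then considered through a list of 72 of their genes, of which 28 were tested and 23 had 0 counts in every library. Of the 28, 9 rose and 1 fell by the same test, and 18 did not pass. This is 35.7% called, against 29.2% of all genes tested (16.5% higher and 12.7% lower). The list was chosen with earlier results of these data known, so its counts are a description only. The median log2 fold change was 0.15, with 18 positive and 10 negative values, with the GC offset it was -0.006, and without a count filter 0.021. The summed level of the list was 3920 to 4050 CPM in control and 6150 to 6510 CPM in OE-labelled libraries. The epithelial marker sum given above was also higher, mostly through Krt18 and Krt8, while Epcam and Cdh1 did not pass. Its part in this result was not tested.

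Most of the summed level came from Ly6-family genes. Ly6e was counted at 1115, 1071 and 1097 CPM in control and at 1725, 1627 and 1647 CPM in OE-labelled libraries (log2 fold change 0.61, SE 0.0866, n = 3, edgeR adjusted p = 0.000478). Ly6a, which encodes the stem cell antigen Sca-1, rose from 803.5 ± 51 to 1707 ± 204 CPM (SD, n = 3; edgeR adjusted p = 5.94e-05). Ly6d rose by 0.87 on the log2 scale (SE 0.0913, n = 3, edgeR adjusted p = 9.12e-05) and Ly6c1 by 1.64 (SE 0.153, n = 3, edgeR adjusted p = 3.87e-05). These 4 genes lie together on chromosome 15, and since the family has closely similar copies, the share of reads given to each is uncertain.

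Cd24a, the gene of a small mucin-like surface protein, rose from 268.9 ± 12.8 to 439.5 ± 41.8 CPM (SD, n = 3; log2 fold change 0.71, SE 0.106, edgeR adjusted p = 0.000598). Bst2, the gene of the antiviral protein tetherin, fell from 13.0 ± 2.89 to 5.56 ± 0.33 CPM (SD, n = 3; log2 fold change -1.22, SE 0.277, edgeR adjusted p = 0.00633). The remaining genes that rose, named after their values were seen, were Efna4 (0.99), Smpdl3b (0.96), Prss8 (0.60) and Gpc1 (0.56). Of these, Efna4 kept its call in all 17 alternatives, while Smpdl3b, Prss8 and Gpc1 lost theirs in 8, 6 and 13. Smpdl3b had only 15, 15 and 9 counts in control. Gpc1 overlaps 1 gene on its own strand and 3 on the opposite strand, so its level is uncertain. Efna4 and Prss8 each overlap 1 gene on the opposite strand. Cd55, a complement regulator gene, had a log2 fold change of -0.49 (SE 0.183), and Prnp, the prion protein gene, one of -0.02 (SE 0.164), and neither passed.

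**Figure D5:**
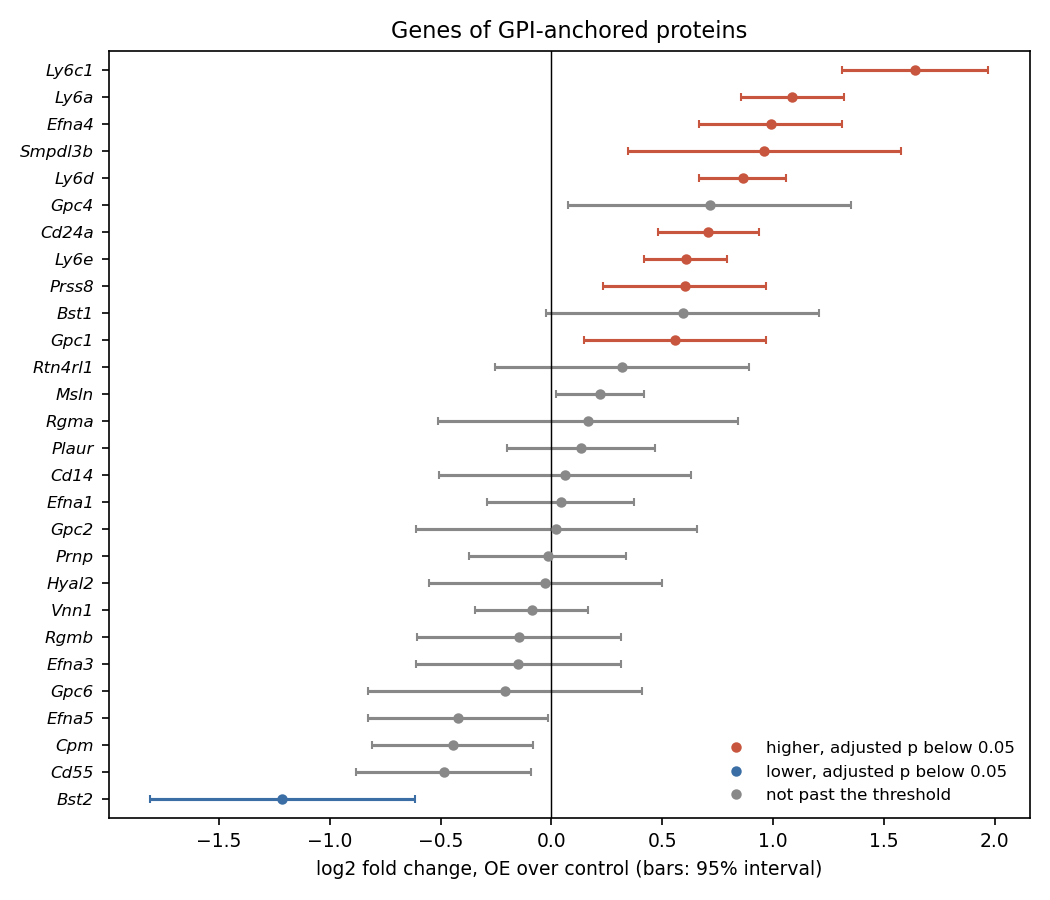
Log2 fold change (OE-labelled over control) of the 28 tested genes of GPI-anchored proteins, with bars for the 95% interval and colour for the edgeR adjusted p (red higher, blue lower, grey not past the threshold). Ly6c1 (1.64) is at the top and Bst2 (-1.22), the only blue gene, at the bottom.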

How the data were processed

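The values are estimated counts per gene as deposited by the authors, without normalization. The submitters' processing notes name STAR, HTSeq and the builds mm10 and GRCm38, without roles, and the strand setting and the handling of multi-mapping reads are not given in the sources used here. Per the labels' protocols, the library kit was QuantSeq 3′ mRNA-Seq FWD, which reads transcripts near their end, so counts are not proportional to transcript length. Of the values above 0, 3.1% were fractional and all counts were rounded, whereas whole counts had been assumed in the planned test. GENCODE M21 (GRCm38) gave positions, overlaps and GC content, matched by identifier for 99.3% of rows.

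The 6 libraries (3 per group, from the sample titles) were compared in R 4.3.3 by edgeR 4.0.16 (quasi-likelihood F-test), with filterByExpr, TMM factors and Benjamini-Hochberg adjustment over 10687 genes. CPM are relative to the effective library size, the floor of 3 counts is 1.18 to 1.41 CPM, and an SE is the estimate over the square root of F. On simulated counts of these genes, 78% of genes changed by 1 log2 unit were recovered and 91.5% of those changed by 2. In the simulation 200 of 10687 genes changed and both groups had the same spread. It had no trend with GC content, so its rates may not hold for this contrast. Control libraries differed from each other by 1.2 to 1.37 times counting noise and OE-labelled libraries by 4.73 to 9.07 times, and none was a copy of another.

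The members and lists were chosen with earlier results of these data known. All members were named, then up to 4 pathway and up to 5 anchored-protein genes per direction with the smallest p past the threshold, and every tested Pgap3 neighbour. Alternatives were DESeq2 size factors, library totals, DESeq2 1.42.0, limma-voom (limma 3.58.1), other filters, equal depth, removal of mitochondrial genes and CT010467.1, a replicate block, a GC offset (loess, span 0.5), each library left out, and a threshold of 0.01.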

Additional observations from a re-analysis of the deposited data

How the results depend on the processing

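Of the 527 values of 31 named genes under 17 alternatives, 441 kept direction and call, 47 lost the call, 7 gained it and 32 changed sign. The gained calls were in Pgap2 (6) and Piga (1). The sign changes were all in Pgap1, Pigk, Pigp, Mien1, Stard3, Grb7 and Erbb2, none of which passed. With DESeq2 size factors, with at least 20 counts in 3 libraries and without mitochondrial genes and CT010467.1, 2 members, 2 pathway genes and 3 anchored-protein genes were lower. Without a count filter 2 pathway genes were lower, and with the GC offset, alone or with the replicate block, 2 members were lower. The count of all genes called lower was 1353 with TMM factors and rose to 1541 with DESeq2 size factors. It was 1479 with at least 20 counts in 3 libraries and 1657 without a count filter. It was 1622 without mitochondrial genes and CT010467.1, but fell to 1077 with the GC offset and to 1247 with block and offset. The DESeq2 test gave 1059 genes higher over the whole table and 3 pathway genes higher. The threshold of 0.01 left 1578 genes (944 higher, 634 lower) and 3 pathway genes higher. Leaving out single libraries gave 1748 to 3532 genes (1033 to 1959 higher, 715 to 1731 lower), 3 to 5 members (1 to 3 lower), 4 to 10 pathway genes (3 to 8 higher, 1 to 2 lower) and 1 to 3 anchored-protein genes lower. The count of pathway genes was highest, at 10, without OE-labelled replicate 3, and the count over the whole table was lowest, at 1748, without control replicate 3.

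The median of the members, -0.04, became 0.01 with library totals, 0.10 with the GC offset and 0.079 with the block and GC offset, and ran from -0.18 to 0.014 over libraries left out. That of the anchored-protein genes became -0.0064 with the GC offset and -0.016 with block and offset, and was 0.021 without a count filter, 0.090 with the 20-count filter and 0.091 without the mitochondrial genes. That of the pathway genes, 0.20, ran from 0.114 to 0.305 over libraries left out. Pgap1 was at 0.047 with library totals, 0.0043 at equal depth, 0.29 with the GC offset and 0.27 with block and offset, and ran from -0.17 to 0.091 over libraries left out. Pigp was at 0.076 with the GC offset and 0.032 with block and offset, and ran from -0.37 to 0.24. Pigk was at -0.015 with DESeq2 size factors or the DESeq2 test, -0.018 with the 20-count filter, -0.0057 without a filter, -0.025 at equal depth and -0.031 without the mitochondrial genes, and ran from -0.073 to 0.13. With the GC offset alone and with block and offset, Mien1 was at -0.053 and -0.055, Erbb2 at -0.034 and -0.028, and Grb7 at -0.21 in either. Grb7 was at -0.019 with DESeq2 size factors or the DESeq2 test, -0.022 with the 20-count filter, -0.010 without a filter and -0.034 without the mitochondrial genes, and ran from -0.052 to 0.034. Stard3 ran from -0.19 to 0.041. The cause of these shifts was not tested.

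The split of all calls depended on scaling: TMM gave 1765 higher and 1353 lower, DESeq2 size factors 1536 and 1541, and library totals 2035 and 1154. Same-numbered libraries of the groups had correlated deviations of 0.1, 0.02 and 0.07, so the numbers were not taken as pairs. With the replicate block 3112 genes passed, 2958 of them shared, and 3 members, 6 pathway genes and 9 anchored-protein genes. Control replicates 1 and 3 correlated best with their own number and replicate 2 did not. Members with under 60 counts in every library (Piga, Pigp, Pigu and Pgap3) are limited by depth. So is Pigt in OE-labelled libraries, at 39, 42 and 30 counts.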
